A study of Rattus norvegicus with 29 samples.

Results

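The comparison asks what pain, isoflurane, conditioning and conditioning under isoflurane have in common in the rat basolateral amygdala at 6 h. It sets 20 arrays from treated rats, taken by their titles as pain, isoflurane, FC and IFC (5 each), against 9 arrays titled baseline control, which together are all 29 arrays of the series. Each treated group was given equal weight, so the pooled value is the mean of 4 group means minus the baseline mean. The pooled test concerns that mean and does not require a change in each group. All 15866 probe sets that are not array controls were eligible, and tests were run on the 9520 whose mean log2 signal reached the 40th percentile (7.26). The abbreviations FC and IFC were read through the study's design text as conditioning and conditioning in the presence of isoflurane. The samples of the pain, isoflurane, FC and IFC groups were taken 6 h after treatment, while the labels give the baseline arrays no time. Strain, sex, age, shock and dose of the inhaled anaesthetic are not given in the sources used here. Rat numbers are given for the 15 pain, FC and IFC arrays only, so separate animals are not stated for the others, and p-values measure the spread between these arrays, which may be technical. The labels name a labelling kit only for isoflurane and baseline, so for pain, FC and IFC a kit difference cannot be told apart from treatment. The samples of the isoflurane group are numbered apart from all others in the series. Whatever goes with that numbering cannot be told apart from their treatment.

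In the basolateral amygdala a neutral cue becomes linked with a painful event during fear conditioning. Its principal cells are glutamatergic projection neurons held in check by GABAergic interneurons. Handling, pain and anaesthesia are all stressors for a rat, and the adrenal corticosterone that they release enters the brain, binds the glucocorticoid receptor and changes transcription of genes such as Fkbp5 and Klf9. Neuronal activity acts faster, through immediate early genes such as Fos, Egr1 and Arc, whose transcripts usually rise and decay within hours.

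Markers of the labelled tissue were present in both sets of arrays. The vesicular glutamate transporter gene Slc17a7 ranged over log2 levels of 11.29, 11.83 and 12.09 (lowest, median and highest) in the 20 treated arrays and 10.60, 11.70 and 12.18 in the 9 baseline arrays. The GABA-synthesis gene Gad1 ranged over 11.61, 11.98 and 12.43 in treated arrays and 11.32, 11.79 and 12.63 in baseline arrays. Choroid plexus, striatal and hypothalamic genes differed strongly between single arrays and are described with their groups. The third pain array stood apart from the rest, with a median correlation of 0.907 with the other arrays, against 0.950 or more for each other array, and it took the extreme score of 49.9 on the first principal component (15.9% of the variance). Values that leaving it out moved by more than 0.05 on the log2 scale are also given without it, a setting chosen after seeing the data.

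No transcript passed the test of the mean of the 4 treated groups against baseline. With limma and Benjamini-Hochberg adjustment, 0 of 9520 probe sets (0%) had an adjusted p under 0.05, and the lowest adjusted p was 0.296. At an unadjusted p under 0.05, 446 probe sets were higher in treated arrays (4.68%) and 381 were lower (4%), 827 in all, where 476 would be so by chance. No probe set had all 20 treated arrays above all 9 baseline arrays (0%), and none had all 20 below (0%). The median standard error of a pooled log2 difference was 0.0913, against 0.127 for a single treated group minus baseline. The 95% interval of the difference lay within 0.25 of zero on the log2 scale for 4198 probe sets (44.1%). It lay within 0.5 of zero, which is 1.41-fold, for 8808 (92.5%), and within 1 for 9486 (99.6%). A mean change of more than 1.41-fold over the 4 groups thus lay outside the interval for most transcripts measured here.

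The treated groups taken singly gave nearly the same count. Pain, FC and IFC minus baseline each had 0 probe sets past an adjusted p of 0.05, with lowest adjusted p of 0.0704, 0.415 and 0.372 in limma. Without the third pain array, the lowest for pain was 0.374. At an unadjusted p under 0.05, 412 probe sets were higher and 441 lower in pain (260 and 230 without that array), 487 and 479 in FC, and 309 and 310 in IFC. Isoflurane minus baseline had 1 past the threshold, the lower level of Insig1 (limma adjusted p 0.0179), with 251 higher and 261 lower at an unadjusted p under 0.05. The labels name a kit for both of these groups, but the isoflurane samples are numbered apart from the rest of the series. These 4 comparisons share the 9 baseline arrays. A moderated F test of whether the 4 treated groups differ among themselves also found 0 past the threshold, the lowest adjusted p being 0.370. At an unadjusted p under 0.05 there were 587 (6.17%).

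The count depended on which baseline arrays were used. Against baseline replicates 6 to 9 alone, 217 probe sets rose (2.28%) and 165 fell (1.73%) in the limma fit, while against replicates 1 to 5 alone 0 rose (0%) and 0 fell (0%), with a lowest adjusted p of 0.274. No label says that these baseline arrays were handled differently, and the subsets were set by the numbers in the titles with earlier results of these data known. Of the 382 probe sets called against replicates 6 to 9, 202 had the same direction against replicates 1 to 5. Their median absolute log2 difference was 0.43 against replicates 6 to 9 and 0.075 against replicates 1 to 5. These probe sets were picked by the first of these values, so both medians are descriptions. Values against each subset are given below for the 30 leading genes and, for genes named with their lists, where the 2 values differ by more than 0.25. The 41 of 132 named genes that passed against replicates 6 to 9 include Ctnnd1, Ntrk2, Fbxw4 and Hbb. Most of the 132 were named for a low p in the pooled comparison, which includes these same treated and baseline arrays. That choice itself favours passing, so the 41 cannot be set against the 2.28% and 1.73% of all probe sets.

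The 15 higher genes with the lowest p include genes of adhesion and junctions, receptor genes and the glucocorticoid target Fkbp5. None of the 15 passed, each with a limma adjusted p of 0.296, and their values are descriptions of the differences the fit ranked highest. In bulk tissue, more cells of a type and more RNA per cell cannot be told apart for any of them. Counts of arrays beyond the baseline range, here and below, concern picked genes and come without the share over all probe sets. Ctnnd1 encodes p120-catenin, which holds cadherins at the membrane. Its level was 8.19, 8.54 and 8.91 (lowest, median and highest) in the 20 treated arrays and 7.71, 8.09 and 8.50 in the 9 baseline arrays. All 20 treated arrays lay above the baseline mean and 11 lay above the highest baseline array, so the ranges overlapped. The pooled difference was 0.47 (SE 0.098), close in size in pain (0.42, and 0.33 without the third array), isoflurane (0.50), FC (0.52) and IFC (0.43). It was 0.27 against baseline replicates 1 to 5 and 0.71 against replicates 6 to 9 (adjusted p 0.00567 in limma for the second value).

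**Figure D1:**
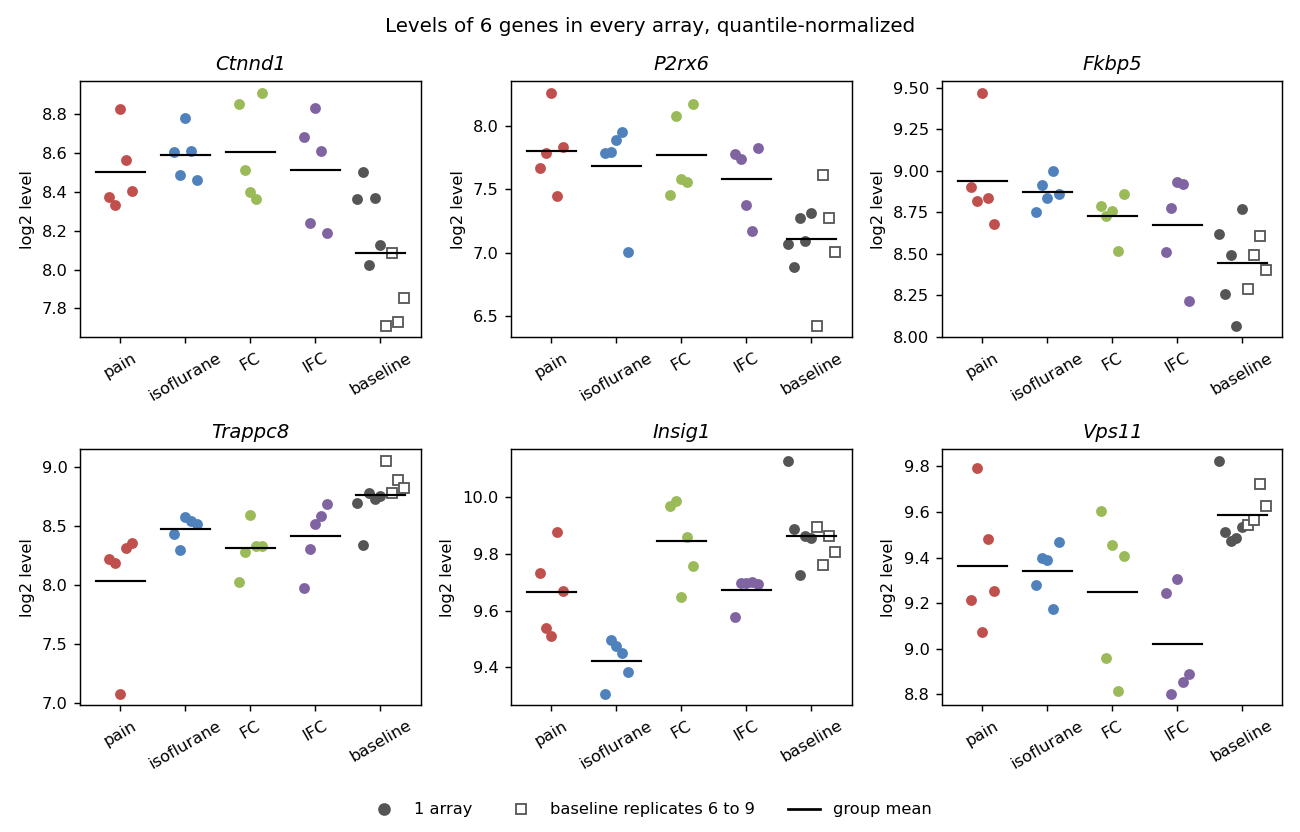
Log2 level of 6 genes in every array, by group, with the 4 treated groups left of baseline; points are arrays, open squares are baseline replicates 6 to 9 and lines are group means. Ctnnd1, P2rx6 and Fkbp5 sit higher in the treated groups and Trappc8 and Vps11 lower. Insig1 sits lower in pain, isoflurane and IFC, while its FC arrays spread around the baseline mean. The range over all treated arrays overlaps that of baseline in each panel.

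The gap-junction gene Gja1 (connexin 43), a main astrocyte channel, averaged 12.94 in treated arrays and 12.74 in baseline arrays, a difference of 0.20 (SE 0.051). In 14 of 20 treated arrays Gja1 exceeded the highest baseline array, although its other probe set differed by only 0.033, and the difference was 0.13 and 0.28 against baseline replicates 1 to 5 and 6 to 9. The synaptic adhesion gene Cadm1 was higher by 0.26 (SE 0.069), with 20 of 20 treated arrays above the baseline mean, and 0.31 on its other probe set. Opcml, a GPI-anchored adhesion gene of the IgLON family, was higher by 0.32 (SE 0.084) and by 0.21 on its other probe set, with 13 treated arrays above the baseline maximum. Against replicates 1 to 5 and 6 to 9 the Cadm1 values were 0.19 and 0.36, and those of Opcml 0.28 and 0.36. The tetraspanin gene Cd82 was higher by 0.42 (SE 0.11), with 0.51 in pain, 0.18 in isoflurane, 0.49 in FC and 0.49 in IFC, and 0.51 and 0.30 against the 2 subsets. Plat, the tissue plasminogen activator that cleaves plasminogen outside cells, was higher by 0.57 (SE 0.15), with 0.39 and 0.80 against the 2 subsets. Its levels of 7.71, 8.55 and 9.47 in treated arrays overlapped with 7.60, 8.01 and 8.42 in baseline arrays, although 14 of 20 treated arrays lay above the baseline maximum.

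The receptor genes were P2rx6, Igf1r and Ntrk2. P2rx6, a subunit of ATP-gated P2X channels, had levels of 7.01, 7.78 and 8.26 in treated arrays and 6.42, 7.09 and 7.61 in baseline arrays. Its pooled difference of 0.60 (SE 0.13) was the largest of these 15 genes, and 13 of 20 treated arrays exceeded the baseline maximum. Unlike that of Ctnnd1, the difference for P2rx6 was nearly the same against baseline replicates 1 to 5 (0.58) and 6 to 9 (0.63). Igf1r, the receptor for insulin-like growth factor 1, averaged 8.45 in treated arrays and 7.98 in baseline arrays (difference 0.47, SE 0.12). Its baseline arrays spread from 7.30 to 8.93 and its treated arrays from 8.07 to 8.82, so 0 treated arrays lay above the baseline maximum. Against baseline replicates 1 to 5 and 6 to 9 it was 0.43 and 0.52. Without baseline replicate 4 the Igf1r difference was 0.59 and passed (limma adjusted p 0.0328). Ntrk2 encodes TrkB, the receptor of brain-derived neurotrophic factor. It was higher by 0.36 (SE 0.095), with 0.18 against baseline replicates 1 to 5, 0.59 against replicates 6 to 9, and 0.13 on its other probe set.

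Fkbp5 encodes an Hsp90 co-chaperone that lowers hormone binding by the glucocorticoid receptor and is itself induced by glucocorticoids. Its levels were 8.90, 8.82, 9.47, 8.83 and 8.68 in the 5 pain arrays, 8.75, 8.91, 8.83, 9.00 and 8.86 with isoflurane, 8.79, 8.73, 8.76, 8.52 and 8.86 in FC, and 8.51, 8.77, 8.93, 8.92 and 8.22 in IFC, against 8.07, 8.49 and 8.77 (lowest, median and highest) in the 9 baseline arrays. Every isoflurane array but 1 was above the baseline maximum, while the IFC arrays reached from near the baseline minimum to above its maximum. The pooled Fkbp5 difference was 0.36 (SE 0.090, 95% interval 0.17 to 0.54), made up of 0.50 in pain (0.37 without the third array, the one at 9.47), 0.43 in isoflurane, 0.28 in FC and 0.23 in IFC. The F test did not separate the 4 treated groups for Fkbp5 (unadjusted p 0.223; limma). The pooled difference was 0.36 and 0.35 against the 2 baseline subsets and 0.31 to 0.40 when any array was left out (0.33 without the third pain array), and it did not pass in any setting tried.

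The remaining higher genes act in transcription, translation, metal and lipid handling. Mtf1, the metal-responsive transcription factor of metallothionein genes, was higher by 0.30 (SE 0.067), with 20 of 20 treated arrays above the baseline mean. Larp1, which binds transcripts of the translation machinery, was higher by 0.35 (SE 0.094) on its brightest probe set, while its 4 probe sets ranged from 0.030 to 0.35. Cyb561a3, a lysosomal relative of cytochrome b561, was higher by 0.51 (SE 0.13), and Chpt1, an enzyme of phosphatidylcholine synthesis, by 0.40 (SE 0.11), with 0.29 and 0.53 for Chpt1 against the 2 subsets. Sez6l2, a neuronal membrane protein gene, was higher by 0.23 (SE 0.058). The differences of Mtf1, Cyb561a3, Larp1 and Sez6l2 against baseline replicates 1 to 5 were 0.16, 0.33, 0.17 and 0.13, below those against replicates 6 to 9, which were 0.46, 0.73, 0.58 and 0.36.

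**Figure D2:**
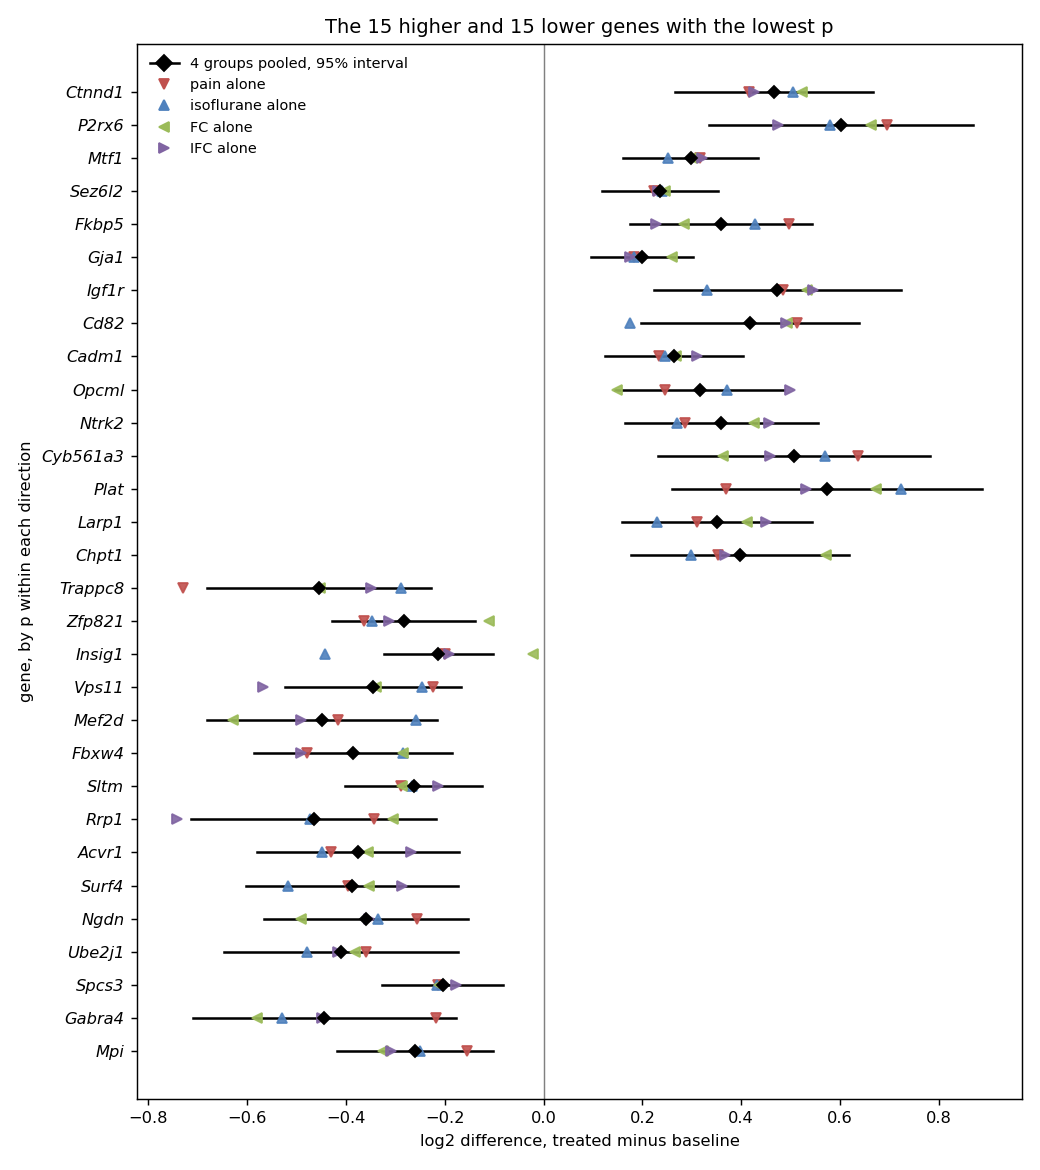
Log2 difference, treated minus baseline, for the 15 higher and 15 lower genes with the lowest p; diamonds with bars are the 4 treatments pooled with 95% intervals and triangles are single treated groups. The intervals are unadjusted, the genes were picked for their low p, and no gene passed after adjustment.

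The 15 lower genes with the lowest p include genes of membrane traffic and the endoplasmic reticulum. None of the 15 passed in limma (adjusted p 0.296 to 0.361). Trappc8, a subunit of the TRAPP complex that tethers vesicles, had levels of 7.08, 8.33 and 8.68 in treated arrays and 8.34, 8.78 and 9.05 in baseline arrays. All 20 treated arrays were below the baseline mean of Trappc8 and 11 were below the lowest baseline array. Its difference was -0.45 (SE 0.11), with -0.73 in pain (-0.49 without the third array, the one at 7.08), -0.29 in isoflurane, -0.45 in FC and -0.35 in IFC. Without that pain array the pooled Trappc8 difference was -0.40, and against baseline replicates 1 to 5 and 6 to 9 it was -0.35 and -0.58. Vps11, a core subunit of the HOPS and CORVET complexes that fuse membranes with endosomes and lysosomes, had levels of 8.80, 9.27 and 9.79 in treated arrays and 9.47, 9.54 and 9.83 in baseline arrays. In 17 of 20 treated arrays Vps11 was below the lowest baseline array. Its difference was -0.34 (SE 0.087), with -0.32 and -0.37 against baseline replicates 1 to 5 and 6 to 9.

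Surf4, a cargo receptor of the endoplasmic reticulum, differed by -0.39 (SE 0.11) and by -0.20 on its other probe set, with -0.19 and -0.63 against the 2 subsets. Ube2j1, a ubiquitin-conjugating enzyme of endoplasmic reticulum quality control, differed by -0.41 (SE 0.12), with 20 of 20 treated arrays below the baseline mean. Its difference was -0.16 against baseline replicates 1 to 5 and -0.72 against replicates 6 to 9. Spcs3, a subunit of the signal peptidase, differed by -0.20 (SE 0.060), and Mpi, which makes mannose 6-phosphate for glycosylation, by -0.26 (SE 0.077). In 11 and 12 of 20 treated arrays these 2 genes lay below the lowest baseline array. The subset values were -0.15 and -0.28 for Spcs3 and -0.21 and -0.32 for Mpi.

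Insig1 holds the sterol regulatory element binding protein (SREBP) complex in the endoplasmic reticulum when sterols are plentiful, and is an SREBP target itself. Its levels were 9.73, 9.54, 9.51, 9.88 and 9.67 in pain, 9.31, 9.50, 9.48, 9.45 and 9.39 with isoflurane, 9.97, 9.99, 9.65, 9.86 and 9.76 in FC, and 9.58, 9.70, 9.70, 9.70 and 9.69 in IFC, against 9.73, 9.86 and 10.13 (lowest, median and highest) in the 9 baseline arrays. All 5 isoflurane arrays and all 5 IFC arrays lay below the lowest baseline array, while the FC arrays spread around the baseline mean. The share of all probe sets with such a gap in these groups is not given here. The pooled difference was -0.21 (SE 0.054), with -0.20 in pain, -0.44 in isoflurane, -0.021 in FC and -0.19 in IFC, and -0.24 and -0.18 against baseline replicates 1 to 5 and 6 to 9. Insig1 had an unadjusted F p of 0.000364 among the treated groups (adjusted 0.495 in limma), so its pooled value averages unequal ones. Median centring of the arrays ended the Insig1 call in isoflurane minus baseline (limma adjusted p 0.0718), as did a comparison against baseline replicates 1 to 5 alone (0.155), the replicate block (0.166) and 4 of 14 fits that left out 1 isoflurane or baseline array. Those 4 were without isoflurane replicate 1, 3, 4 or 5, with limma adjusted p of 0.180, 0.0505, 0.0624 and 0.109.

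Other lower genes act in transcription, RNA handling and signalling. Mef2d, an activity-regulated transcription factor of neurons, differed by -0.45 (SE 0.11) on its brighter probe set and by 0.11 on the other, so its direction is unsettled, and the brighter one was at -0.41 and -0.50 against the 2 subsets. The RNA-binding transcription modulator gene Sltm differed by -0.26 (SE 0.068) and the zinc finger gene Zfp821 by -0.28 (SE 0.071), both with 20 of 20 treated arrays below the baseline mean. Against replicates 1 to 5 and 6 to 9, Sltm was at -0.17 and -0.38 and Zfp821 at -0.18 and -0.41. Rrp1, of ribosomal RNA processing, differed by -0.47 (SE 0.12), with -0.74 in IFC and -0.30 in FC, and -0.31 and -0.65 against the 2 subsets. Ngdn, which binds the cap-binding translation factor eIF4E, differed by -0.36 (SE 0.10). The F-box gene Fbxw4 was at -0.38 (SE 0.098), and the bone morphogenetic protein receptor gene Acvr1 at -0.38 (SE 0.10). The subset values were -0.18 and -0.59 for Ngdn, -0.18 and -0.64 for Fbxw4 and -0.22 and -0.57 for Acvr1, each first against replicates 1 to 5. Gabra4, the alpha-4 subunit of GABA-A receptors, had levels of 6.91, 7.78 and 8.22 in treated arrays and 7.76, 8.27 and 8.65 in baseline arrays. The Gabra4 difference was -0.44 (SE 0.13), -0.39 and -0.51 against baseline replicates 1 to 5 and 6 to 9, and 8 treated arrays lay below all baseline arrays.

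Promoters of the leading genes were read to show what sequence lies at their starts. RefSeq promoter sequences (rat build GRCr8, 250 bases before to 50 after the start) were matched for 22 of the 30 genes. The 3 printed here are those of Fkbp5, the glucocorticoid target, at chr20:6543506-6543805 (minus strand), Insig1, at chr4:8057720-8058019 (minus strand), and Vps11, at chr8:53595328-53595627 (minus strand), each 5′ to 3′ on the gene's strand. Capitals mark matches to the E-box CACGTG.

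Fkbp5 promoter: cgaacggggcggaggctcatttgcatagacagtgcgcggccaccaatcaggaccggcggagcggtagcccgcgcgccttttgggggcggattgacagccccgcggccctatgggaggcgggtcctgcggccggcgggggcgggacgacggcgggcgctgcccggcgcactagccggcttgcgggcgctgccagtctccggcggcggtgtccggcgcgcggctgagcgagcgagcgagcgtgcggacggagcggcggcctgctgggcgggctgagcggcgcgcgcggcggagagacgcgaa

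Insig1 promoter: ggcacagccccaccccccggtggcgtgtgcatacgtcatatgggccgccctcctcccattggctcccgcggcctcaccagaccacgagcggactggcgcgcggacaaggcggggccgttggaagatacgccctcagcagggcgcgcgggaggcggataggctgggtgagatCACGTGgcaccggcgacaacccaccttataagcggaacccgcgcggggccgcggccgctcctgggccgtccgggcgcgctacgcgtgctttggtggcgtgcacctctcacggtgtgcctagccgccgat

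Vps11 promoter: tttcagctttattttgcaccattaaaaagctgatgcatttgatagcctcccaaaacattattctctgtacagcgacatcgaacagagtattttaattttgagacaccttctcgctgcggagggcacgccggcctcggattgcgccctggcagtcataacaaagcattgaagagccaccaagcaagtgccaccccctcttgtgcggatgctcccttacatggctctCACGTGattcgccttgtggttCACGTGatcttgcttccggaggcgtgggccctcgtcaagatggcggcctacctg

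The glucocorticoid response element core ACANNNTGT, searched on both strands, was in 0 of the 22 promoters and in 6.86% of all 33469 rat promoters of the same length. The cyclic AMP response element TGACGTCA was in 0 of 22 and in 1.83% of all. Its shorter form TGACG, which the full element contains, was in 7 of 22 (31.8%) and in 21.2% of all. The E-box was in 5 of 22 (22.7%), those of Igf1r, Larp1, Insig1, Vps11 and Rrp1, and in 6.42% of all. In Insig1 it began 79 bases before the start, and in Vps11 there were 2, beginning 25 and 4 bases before it. The sterol element TCACNCCAC and the serum response form CCATATTAG were in 0 of 22, against 1.12% and 0.0956% of all promoters. These matches describe letters in a short window of genes picked for their low p, and no test was made of them.

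Glucocorticoid-responsive genes were mostly higher in treated arrays. Of 27 listed genes 19 were tested, and 17 were higher and 2 lower in the pooled comparison, with 8 higher and 0 lower at an unadjusted p under 0.05 and 0 passing after adjustment. Over all 9520 probe sets 49.4% were higher, with 4.68% higher and 4% lower at that p, shares that also stand beside each list below. The median log2 difference of the glucocorticoid list was 0.13, against -0.0015 over all probe sets. By group the median was 0.073 in pain (0.13 without the third array), 0.19 in isoflurane, 0.11 in FC and 0.12 in IFC. It was 0.12 against baseline replicates 1 to 5 and 0.21 against replicates 6 to 9, and 0.074 with arrays centred on their medians, where all probe sets had a median of -0.057. After Fkbp5 the members with the lowest p were Klf9 and Gpd1. Klf9, a transcription factor induced by corticosterone, was at 10.44, 10.93 and 11.19 in treated arrays and 10.39, 10.64 and 10.94 in baseline arrays (difference 0.24, SE 0.070), with 0.12 and 0.39 against the 2 subsets. Gpd1, the glycerol 3-phosphate dehydrogenase of the cytosol, was at 8.76, 9.16 and 9.57 in treated arrays and 8.72, 8.93 and 9.05 in baseline arrays (difference 0.24, SE 0.072). In 8 treated arrays Klf9, and in 13 Gpd1, was above the highest baseline array.

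Values of other glucocorticoid-linked genes were mixed. The receptor gene Nr3c1 differed by 0.077 (SE 0.068) and the kinase gene Sgk1 by 0.0085 (SE 0.13), with Sgk1 at 0.21 in isoflurane and -0.23 in IFC. The cell-cycle inhibitor gene Cdkn1a differed by 0.59 (SE 0.28, unadjusted limma p under 0.05, adjusted 0.553). Per1, a clock gene that glucocorticoids induce, was below the filter on dim probe sets and was not tested. S100b and Glul, with differences of 0.12 and 0.14, are also astrocyte markers and are in that list too. The mean score of the glucocorticoid list (the mean of each gene's level minus its mean over all arrays) was highest in isoflurane, at 0.14 ± 0.093, with pain at 0.015 ± 0.18, FC at 0.069 ± 0.083, IFC at -0.024 ± 0.094 and baseline at -0.11 ± 0.10 (SD, n = 5 for each treated group and n = 9 for baseline). The pain score was 0.064 ± 0.17 without the third array (SD, n = 4).

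Genes of neuronal activity were split in direction at 6 h. Of 22 listed immediate early transcription factors 12 were tested, while Fosb and Atf3, among others, were below the filter. Among the 12 tested, 6 were higher and 6 lower (median -0.013, and 0.034 with the deposited scaling), with 2 in each direction at an unadjusted p under 0.05. Fos was at 6.69, 8.07 and 8.70 in treated arrays and 6.18, 7.87 and 9.21 in baseline arrays, a difference of 0.0063 (SE 0.26). The baseline Fos arrays differed between subsets, so that the treated minus baseline value was -0.49 against replicates 1 to 5 and 0.62 against replicates 6 to 9. Egr1 differed by -0.20 (SE 0.084) and the AP-1 gene Junb by -0.20 (SE 0.094), while the nuclear receptor gene Nr4a3 differed by 0.32 (SE 0.12) and the cyclic AMP modulator gene Crem by 0.50 (SE 0.24). Against replicates 1 to 5 and 6 to 9, Nr4a3 was at 0.43 and 0.17 and Crem at 0.81 and 0.12. Among 11 activity-regulated effectors, 5 were higher and 6 lower (median -0.010). Arc, which acts at the synapse after activity, differed by 0.019 (SE 0.12), with -0.27 and 0.38 against the 2 subsets. Bdnf differed by -0.24 (SE 0.17), with 0.012 in isoflurane and -0.34, -0.38 and -0.27 in pain, FC and IFC. It was -0.17 in pain without the third array, and -0.011 and -0.54 pooled against the 2 subsets. The 95% interval for Bdnf was -0.58 to 0.09.

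**Figure D3:**
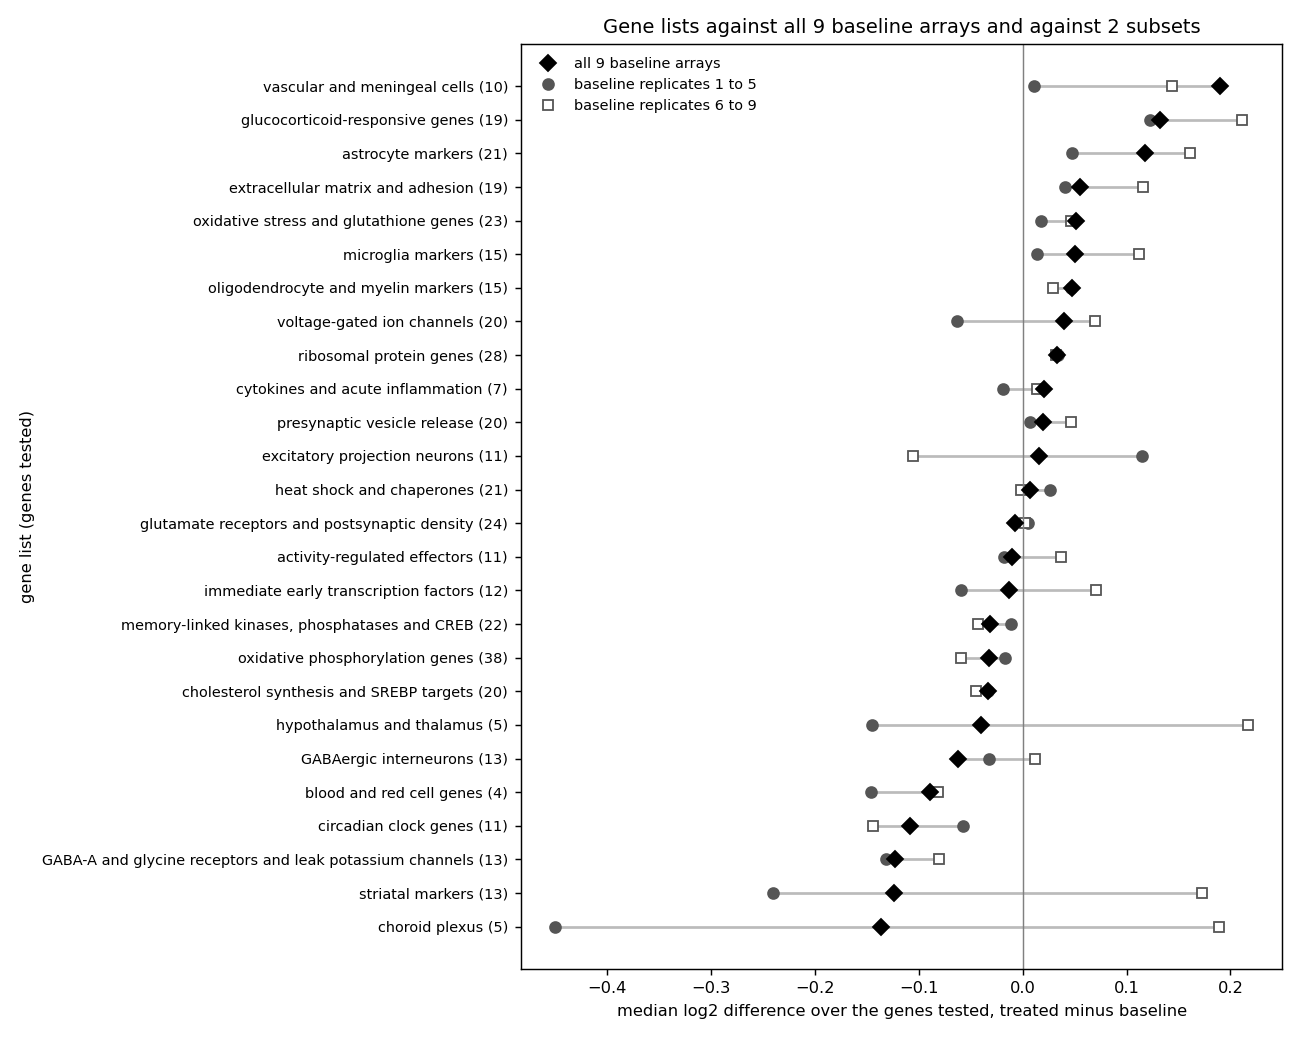
Median log2 difference, treated minus baseline, over the tested genes of each of 26 lists, against all 9 baseline arrays (diamonds) and against baseline replicates 1 to 5 (filled circles) or 6 to 9 (open squares). The glucocorticoid median stays at 0.12 or above in all 3. The medians of several lists change sign between the 2 subsets. Among them are the striatal, choroid plexus, hypothalamus and thalamus, excitatory neuron, voltage-gated channel and immediate early lists.

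Astrocyte genes were higher in most members. Of 21 tested, 20 were higher and 1, Slc1a2, was lower, with 7 higher and 0 lower at an unadjusted p under 0.05. Over all 9520 probe sets 49.4% were higher, with 4.68% higher and 4% lower at that p. In the astrocyte list 0 passed after adjustment and the median was 0.12. The median was 0.11 in pain, 0.041 in isoflurane, 0.15 in FC and 0.10 in IFC. It was 0.047 against baseline replicates 1 to 5 and 0.16 against replicates 6 to 9, and 0.015 with arrays centred on their medians. The gap-junction gene Gjb6 (connexin 30) was at 8.83, 9.43 and 10.13 in treated arrays and 8.22, 9.04 and 9.31 in baseline arrays, a difference of 0.50 (SE 0.14), with 0.64 and 0.32 against the 2 subsets. The filament gene Gfap differed by 0.28 (SE 0.095), with 0.098 in isoflurane and 0.27, 0.40 and 0.34 in pain, FC and IFC, and 0.13 and 0.46 against the 2 subsets. Score values of the list overlapped, at 0.026 ± 0.11 in pain, -0.033 ± 0.16 in isoflurane, 0.14 ± 0.14 in FC, 0.051 ± 0.12 in IFC and -0.10 ± 0.14 in baseline (SD, same n).

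Vascular, other glial and matrix genes were also more often higher than lower. Over all probe sets 49.4% were higher, with 4.68% higher at an unadjusted p under 0.05. With arrays centred on their medians, all probe sets had a median of -0.057. Of 24 listed vascular and meningeal genes 10 were tested, while Pecam1, Flt1 and Kdr, among others, were below the filter. In the 10 tested, 7 were higher (3 at an unadjusted p under 0.05) with a median of 0.19. That median was 0.011 against baseline replicates 1 to 5, 0.14 against replicates 6 to 9 and -0.029 in isoflurane alone. Cldn5, a tight-junction gene of brain endothelium, differed by 0.34 (SE 0.11), with 0.29 and 0.41 against the 2 subsets, whereas the smooth muscle actin gene Acta2 differed by 0.29 (SE 0.14), with -0.053 and 0.73. Among 15 oligodendrocyte genes 11 were higher (2 at an unadjusted p under 0.05), with a median of 0.048 that was -0.040 with arrays centred on their medians. Their median was 0.25 in FC, against 0.031 or less in each other group, and 0.047 and 0.029 against the 2 subsets. The myelin gene Mal differed by 0.34 (SE 0.10), with 0.19 and 0.52 against the subsets. Of 15 microglial genes 10 were higher (2 at an unadjusted p under 0.05), with a median of 0.051 that was -0.016 after the same centring, and 0.014 and 0.11 against the 2 subsets. Aif1, a microglial calcium-binding protein gene, differed by 0.25 (SE 0.12), with 0.14 and 0.39 against the subsets. Among 19 extracellular matrix and adhesion genes 14 were higher, 4 of them at an unadjusted p under 0.05 (Plat, Fn1, Sparc and Serpine2). Their list had a median of 0.055 that was -0.0058 after centring, and 0.041 and 0.12 against the 2 subsets. Sparc was at 0.22 against replicates 1 to 5 and 0.60 against replicates 6 to 9, and Serpine2 at 0.092 and 0.57.

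Receptor and channel genes for inhibition were more often lower. Of 13 GABA-A, glycine receptor and leak potassium channel genes, 10 were lower and 3 higher, with a median of -0.12, where 49.4% of all probe sets were higher. At an unadjusted p under 0.05, 4.68% of all probe sets were higher and 4% lower, and of this list 1 was higher and 3 were lower. Besides Gabra4 these were the glycine receptor genes Glra2, at 8.36, 9.12 and 9.80 in treated arrays and 9.18, 9.54 and 10.03 in baseline arrays (difference -0.45, SE 0.14, and -0.58 and -0.27 against the 2 subsets), and Glrb, with a difference of -0.36 (SE 0.13). Gabrb1, the beta-1 subunit of GABA-A receptors, was the 1 higher, by 0.26 (SE 0.089), with 0.42 in FC and 0.46 in IFC and 0.070 in pain (0.13 without the third array) and 0.080 in isoflurane. The list median was -0.043 in pain, -0.025 in isoflurane, -0.22 in FC and -0.099 in IFC. Of 24 glutamate receptor and postsynaptic density genes, 11 were higher and 13 lower (median -0.0075, and 0.0036 with the deposited scaling). Dlgap1, a postsynaptic scaffold gene, differed by 0.21 (SE 0.056) and the AMPA receptor gene Gria3 by 0.22 (SE 0.082). Grm7, a presynaptic glutamate receptor gene, differed by -0.32 (SE 0.13).

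Other neuronal lists had pooled medians between -0.063 and 0.040. Presynaptic release genes were 11 higher and 9 lower of 20 (median 0.019, and -0.017 with the deposited scaling), kinase, phosphatase and CREB genes 8 higher and 14 lower of 22 (median -0.031, and -0.066 with the deposited scaling), and 0 of either list reached an unadjusted p under 0.05. The vesicle protein gene Sv2b had the largest difference of these, 0.68 (SE 0.34), with 9.90, 12.22 and 12.78 in treated arrays and 9.77, 10.95 and 12.47 in baseline arrays, and 1.48 in IFC, and 1.06 and 0.21 against the 2 subsets. Excitatory projection neuron genes were 6 higher and 5 lower of 11 (median 0.016), with Slc17a7 at 0.12 (SE 0.14). With arrays centred on their medians the median of this list was -0.048, where that of all probe sets was -0.057. Against replicates 1 to 5 and 6 to 9 the list median was 0.11 and -0.11, and Slc17a7 was at 0.31 and -0.11. GABAergic interneuron genes were 4 higher and 9 lower of 13 (median -0.063, with -0.032 and 0.012 against replicates 1 to 5 and 6 to 9). Their median was 0.026 in pain, -0.019 in isoflurane, -0.27 in FC and -0.040 in IFC. The peptide gene Cck was at -0.26 (SE 0.12) and Gad1 at 0.14 (SE 0.11), with -0.030 and -0.54 for Cck and -0.032 and 0.35 for Gad1 against the 2 subsets. Voltage-gated channel genes were 12 higher and 8 lower of 20 (median 0.040, with -0.063 and 0.070 against the 2 subsets). The sodium channel gene Scn3a was at -0.45 (SE 0.14), made up of -0.84 in pain (-0.68 without the third array) and -0.28, -0.36 and -0.34 in isoflurane, FC and IFC.

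Circadian clock genes were lower in 10 of 11 members tested, where 49.4% of all probe sets were higher. The list held 20 genes, and Per1, Per3, Cry1 and Arntl were among those not tested. At an unadjusted p under 0.05, 4% of all probe sets and 1 clock gene were lower, and the list median was -0.11. The labels give the treated arrays an interval after treatment and no array a time of day, so time of day cannot be told apart from treatment in these genes. Bhlhe40, a repressor of the clock loop, was at 7.72, 8.18 and 8.56 in treated arrays and 8.13, 8.46 and 8.82 in baseline arrays, a difference of -0.27 (SE 0.098). Dbp, an output gene of the clock, differed by -0.11 (SE 0.075). The median was -0.057 against baseline replicates 1 to 5 and -0.14 against replicates 6 to 9.

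Metabolic and stress-protein lists had medians between -0.033 and 0.052 after quantile normalization. Over all probe sets 49.4% were higher, with 4.68% higher and 4% lower at an unadjusted p under 0.05. Oxidative phosphorylation genes were lower in 28 of 38 members, 4 of them at an unadjusted p under 0.05, with a median of -0.033. That median was -0.076 with the deposited scaling and -0.14 with arrays centred on their medians, where all probe sets had medians of 0.011 and -0.057. The succinate dehydrogenase genes Sdha, Sdhc and Sdhd, parts of complex II, differed by -0.20, -0.19 and -0.086 (SE 0.070, 0.075 and 0.041), Sdhc with -0.067 and -0.34 against the 2 baseline subsets. Ribosomal protein genes were higher in 19 of 28, 5 of them at an unadjusted p under 0.05, with a median of 0.033 that was -0.012 with the deposited scaling and -0.080 after centring. Oxidative stress and glutathione genes were higher in 14 of 23 (median 0.052, and -0.031 with arrays centred on their medians), with 5 higher and 2 lower at an unadjusted p under 0.05. Catalase (Cat) differed by 0.26 (SE 0.10) and thioredoxin (Txn1) by -0.13 (SE 0.049). Against replicates 1 to 5 and 6 to 9, Cat was at 0.059 and 0.52 and Txn1 at -0.0089 and -0.27. Heat shock and chaperone genes were 11 higher and 10 lower of 21 (median 0.0070, and -0.029 with the deposited scaling), with the small heat shock gene Cryab at 0.26 (SE 0.10) and the disulfide isomerase gene Pdia4 at -0.32 (SE 0.13). Pdia4 was at -0.25 without the third pain array, and at -0.068 and -0.63 against the 2 subsets. Cytokine and inflammation genes were 5 higher and 2 lower of 7, with 0 at an unadjusted p under 0.05 and a median of 0.020 that was -0.0026 with arrays centred on their medians. Of 26 listed genes in that group, 24 are on the array and only 7 were tested, while Il1b, Il6 and Tnf, among others, were below the filter.

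Cholesterol synthesis and SREBP target genes were 8 higher and 12 lower of 20, with a median of -0.034. The 3 at an unadjusted p under 0.05 were all lower, and besides Insig1 were the synthesis enzymes Fdps and Fdft1. Fdps, which makes farnesyl diphosphate, differed by -0.21 (SE 0.093), and Fdft1, squalene synthase, by -0.16 (SE 0.074). By group, Fdps was at -0.10 in pain, -0.13 in isoflurane, -0.36 in FC and -0.24 in IFC, an order unlike that of Insig1.

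Globin transcripts were lower in treated arrays than in all 9 baseline arrays together, and lowest in pain, with none passing the pooled test. Hbb, the beta-globin gene of red cells, had levels of 10.78, 10.88, 10.21, 10.91 and 10.75 in the pain arrays, 10.99, 12.05, 11.18, 12.00 and 12.16 with isoflurane, 11.51, 11.40, 11.71, 11.52 and 12.14 in FC, and 10.66, 11.11, 12.14, 11.65 and 12.03 in IFC, against 11.05, 11.90 and 12.60 (lowest, median and highest) in baseline. All 5 pain arrays, and so also the 4 without the third, were below the lowest baseline array, while the other treated groups overlapped with baseline. The share of all probe sets with such a gap in pain is not given here. The pooled difference was -0.51 (SE 0.18; limma adjusted p 0.410), of which pain had -1.19 (-1.07 without the third array), isoflurane -0.23, FC -0.25 and IFC -0.39, with an unadjusted F p of 0.0038 among treated groups. Against baseline replicates 1 to 5 it was -0.13 and against replicates 6 to 9 it was -0.99. All 7 globin probe sets tested were lower, from -0.31 to -1.13, including 5 that carry several gene symbols. Against baseline replicates 1 to 5 alone 6 of the 7 were lower, from -0.46 to 0.11, with Hba-a3 the 1 higher, and against replicates 6 to 9 all 7 were lower, from -0.84 to -1.97. Of 15 genes in the blood list 7 are on the array and 4 were tested. Besides Hbb the tested ones were Epb41 at -0.22 (SE 0.10), Slc4a1 at 0.24 (SE 0.23) and Bpgm at 0.046 (SE 0.067). Slc4a1 was at -0.28 and 0.88 against the 2 subsets. In pain alone Epb41 was at -0.71, Slc4a1 at 0.34 (0.29 without the third array) and Bpgm at 0.035. The part of blood in other results was not tested.

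**Figure D4:**
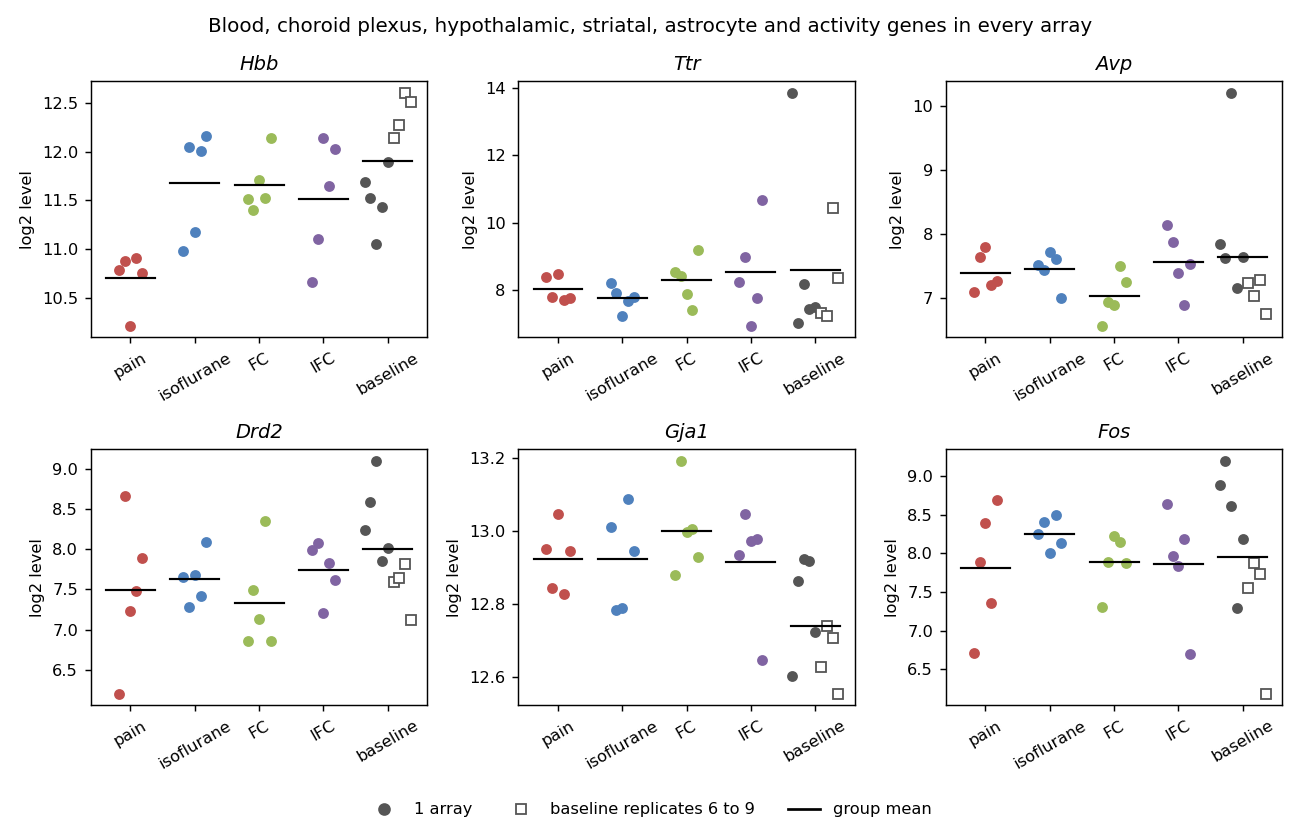
Log2 level of genes of blood (Hbb), choroid plexus (Ttr), hypothalamus (Avp), striatum (Drd2), astrocytes (Gja1) and neuronal activity (Fos) in every array, with treated groups left of baseline, open squares for baseline replicates 6 to 9 and lines for group means. Hbb is lowest in pain, Ttr reaches 13.87 in 1 baseline array and Avp 10.21 in another.

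Markers of neighbouring tissue varied between arrays more than between groups. Ttr, the transthyretin gene of choroid plexus, was at 6.92, 7.87 and 10.67 in treated arrays and 6.99, 7.49 and 13.87 in baseline arrays, a difference of -0.45 (SE 0.52). Without baseline replicate 1, the array at 13.87, the Ttr difference was 0.21, and against replicates 1 to 5 and 6 to 9 it was -0.66 and -0.19. Of 5 choroid plexus genes 3 were lower (median -0.14), and the median was -0.45 against baseline replicates 1 to 5 and 0.19 against replicates 6 to 9. Of 13 striatal genes 10 were lower (2 at an unadjusted p under 0.05, median -0.12), and their median was -0.24 against replicates 1 to 5 and 0.17 against replicates 6 to 9. The dopamine receptor gene Drd2 was at 6.21, 7.56 and 8.66 in treated arrays and 7.12, 7.85 and 9.10 in baseline arrays, a difference of -0.45 (SE 0.22), -0.81 against replicates 1 to 5 and 0.0072 against replicates 6 to 9. The phosphodiesterase gene Pde10a differed by -0.35 (SE 0.10), with -0.17 and -0.57 against the 2 subsets. Avp, a hypothalamic peptide gene, differed by -0.28 (SE 0.24) and by 0.044 without baseline replicate 3, where it stood at 10.21, with -0.73 and 0.29 against the 2 subsets. The hypothalamus and thalamus list held 5 tested genes, with a median of -0.040. That median was -0.145 against replicates 1 to 5 and 0.217 against replicates 6 to 9. Whether dissection contributes to the differences of other genes was not tested.

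The largest differences were not the best measured. Of 9520 probe sets, 32 differed by more than 0.5 on the log2 scale (18 higher and 14 lower) and 2 by more than 1. These 2 were a probe set without a gene name, at 8.00 in treated and 6.63 in baseline arrays (difference 1.37, SE 0.56), and a beta-globin probe set with several gene symbols, at 9.45 in treated and 10.58 in baseline arrays (difference -1.13, SE 0.30). Among other genes picked here for the size of their difference after the values were seen, the filament gene Vim was at 8.96 in treated and 8.32 in baseline arrays (difference 0.64, SE 0.24). The signalling inhibitor gene Smad6 was at 7.68 in treated and 6.97 in baseline arrays (difference 0.70, SE 0.26). The matrix gene Ccn2 was at 8.46 in treated and 9.07 in baseline arrays (difference -0.61, SE 0.32), and the transcription factor gene Atf2 at 7.44 in treated and 8.07 in baseline arrays (difference -0.63, SE 0.28). Limma adjusted p for these 4 genes lay between 0.410 and 0.592.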

How the data were processed

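Total RNA of rat basolateral amygdala was measured on 29 one-colour arrays, with 5 pain, 5 isoflurane, 5 FC, 5 IFC and 9 baseline arrays grouped by their titles. The deposited values are linear signal intensity per probe set, which the authors had scaled: the mean without the lowest and highest 2% is 500.08 to 500.12 throughout. The software and its background correction are not given in the sources used here, and detection calls were not used. Medians of the deposited intensity ran from 210.7 to 292.2 (0.47 on the log2 scale), so the arrays were quantile normalized, values below 16 were set to 16, and log2 was taken.

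Of 15923 probe sets 57 are controls. Of the other 15866, the platform annotation gives 1 symbol to 12783, several to 312 and none to 2771; 12748 of those with 1 symbol matched the GRCr8 gene table by gene identifier, and 0 symbols changed. The 9520 probe sets whose mean reached the 40th percentile were fitted in R 4.3.3 with limma 3.58.1: 1 mean per group, eBayes with an intensity trend, the mean of the 4 treated groups minus baseline, and a moderated F test among the treated groups. Benjamini-Hochberg adjustment ran over all 9520, with a threshold of 0.05. The code was tested on simulated data. Fold differences are on the log2(intensity) scale, and levels of different probe sets are not comparable. The number of arrays limits the precision.

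A gene is represented by its probe set of highest mean among those with 1 symbol (7023 genes). Named are the 15 higher and 15 lower genes with the lowest pooled p, the 4 genes of lowest p in each of 26 lists (644 genes, written from general knowledge), and Fkbp5, Insig1, Hbb, Fos, Egr1, Arc, Bdnf, Per1, Sgk1, Nr3c1, Ttr, Slc17a7 and Gad1. Other members of a list are named where a sentence concerns them. The members of the comparison, the lists and the tests were chosen with earlier results of these data known. Alternatives tried were the deposited scaling, median centring, other filters and floor, no trend, 2-group fits, baseline subsets, 3 treated groups, the replicate number as a block, and each array left out. No duplicate arrays were found (correlations between arrays of 0.885 to 0.977).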

Additional observations from a re-analysis of the deposited data

Results flagged for a closer look

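In 43 cases the highest or lowest array of a group stood far from the next for 1 of the 132 named genes tested, by Dixon's ratio of gap to range, over 660 pairs of gene and group. Chance gives about 1 in 20, which is 33 here. All values are log2 levels, and 9 of the 43 were in pain replicate 3.

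Pain replicate 3 was the highest of its group for Fkbp5 at 9.47 (next 8.90) and Acta2 at 9.40. It was the lowest for Trappc8 at 7.08 (next 8.19), Ube2j1 at 7.52, Fdft1 at 9.52, Pdia4 at 6.82 (next 7.97), Glrb at 8.48, Hbb at 10.21 and Adcy5 at 6.69 (next 7.81). Other pain arrays apart were replicate 1, low for Glra2 at 8.69 and Syn1 at 11.58 and high for Fn1 at 8.90, replicate 2, low for Nr4a3 at 9.07 and high for Sc5d at 10.12, and replicate 4, low for Sdhc at 11.14.

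In isoflurane, replicate 5 was low for P2rx6 at 7.01 (next 7.78), replicate 3 for Ngdn at 8.73 and replicate 2 for Prkcz at 9.79. Isoflurane replicate 4 was high for Cadm1 at 11.34, Mog at 10.03 and B2m at 12.66. In FC, replicate 1 was low for Igf1r at 8.41, replicate 5 for Zfp821 at 8.05 and replicate 2 for Fdft1 at 9.93, while replicate 2 was high for Vcam1 at 10.63 and replicate 3 for Glrb at 9.42. In IFC, replicate 5 was low for Gja1 at 12.65 (next 12.93) and high for Spcs3 at 10.97, replicate 1 was high for Cyb561a3 at 8.05 and low for Insig1 at 9.58, and replicate 4 was low for Sparc at 11.10.

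Among baseline arrays, replicate 1 was high for the choroid plexus genes Ttr at 13.87 (next 10.43), Folr1 at 9.83 and Enpp2 at 11.99, and for Insig1 at 10.13. Replicate 3 was high for the hypothalamic peptide gene Avp at 10.21 (next 7.84) and for A2m at 9.00. Replicate 2 was low for Trappc8 at 8.34 and Nptx1 at 10.30, replicate 4 for Prdx5 at 10.60 and replicate 6 for B2m at 11.97. Replicate 8 was high for Adcy5 at 8.78 and low for Pmch at 6.38.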

How the results depend on the processing

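Both counts of the pooled comparison stayed at 0 under the deposited scaling, median centring, no filter, a filter at the 70th percentile, a floor of 64, eBayes without trend, both 2-group fits, each set of 3 treated groups and, chosen after seeing the data, pain replicate 3 left out before normalization. The lowest adjusted p in these was 0.0697, without a filter. They also stayed at 0 against baseline replicates 1 to 5 alone, and were 217 higher and 165 lower against replicates 6 to 9 alone. Leaving out 1 array gave 0 to 1 probe sets higher (Igf1r, without baseline replicate 4), 0 to 0 lower and 0 to 1 in the F test (Ppp1r18, adjusted p 0.00181, without pain replicate 4). The replicate numbers did not pair the arrays: deviations of 50 same-number pairs correlated at -0.24 to 0.26 (median -0.011), 12 were over 0.1, and 3 of 25 arrays correlated best with their own number. With the number as a block, both counts and the F count were 0 (lowest adjusted p 0.659). The block takes out baseline replicates 6 to 9, so with the block, as against replicates 1 to 5, the differences that changed sign were Canx 0.041, Cxcl12 -0.019, Grm2 0.0041, Gad1 -0.032, Calm2 -0.00083, Camk2d 0.0077, Acta2 -0.053, Slc4a1 -0.28, Bpgm -0.027, Folr1 -0.082, Gal -0.046, Fos -0.49, Arc -0.27, Sgk1 -0.029 and Nr3c1 -0.032. Against replicates 6 to 9 they were Aqp1 0.19, Enpp2 0.26, Drd2 0.0072, Avp 0.29, Pmch 0.18 and Slc17a7 -0.11. With arrays centred on their medians, where all probe sets had a median of -0.057, they were S100b -0.016, Cxcl12 -0.0026, Rpl7 -0.013, Calm2 -0.076, Bpgm -0.036, Arc -0.033 and Sgk1 -0.065, and with the deposited scaling Calm2 -0.0084. Without isoflurane they were Fos -0.095, Arc -0.023 and Sgk1 -0.060, without FC Sgk1 -0.015, and without pain replicate 3 before normalization Fos -0.031. With 1 array left out, Ttr ran from -0.65 to 0.21, Enpp2 from -0.22 to 0.16, Avp from -0.39 to 0.044, Slc17a7 from -0.0030 to 0.19, Slc4a1 from -0.019 to 0.36, Cxcl12 from -0.014 to 0.091, Fos from -0.21 to 0.16, Arc from -0.061 to 0.12 and Sgk1 from -0.040 to 0.058. None of these genes passed the pooled test, and the cause was not tested. Signal over background is not known for the deposited intensities, so what it limits cannot be given.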
